A study of Mus musculus with 6 samples.

Results

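Small nucleolar host genes and nuclear long noncoding RNAs were examined in control and Carmil3 knockout 4T1 cells, which are a mouse line of mammary tumour cells. The genes were chosen by name: Snhg1, Snhg3, Snhg4, Snhg5, Snhg6, Snhg8, Snhg12, Gas5, Malat1 and Neat1. A row was found for 8 of these 10 genes among the 23644 genes of the deposited table, and all 8 were among the 11171 genes that passed the expression filter, a level of 1 FPKM or more in 3 or more libraries. Snhg3 and Snhg4 were not analysed here. FPKM is the number of reads scaled by exon length and by library depth, so it is a level per length.

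The series holds 3 RNA-seq libraries of wild-type 4T1 cells, called control here, and 3 libraries of Carmil3 knockout 4T1 cells. Per the labels, knockout cells were clones grown up from single cells, and both genotypes were kept in the same serum-containing medium. The number of clones and whether libraries of a genotype came from separate cultures are points not given in the sources used here, so the p-values measure the spread between these libraries, which may be technical. Carmil3 encodes a protein that binds actin capping protein.

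A small nucleolar host gene is transcribed into a long RNA whose introns contain small nucleolar RNAs (snoRNAs). The snoRNAs are cut out and guide chemical modification or processing of ribosomal and other RNAs, while the spliced host RNA usually encodes no protein, and several such host RNAs are known to be turned over by nonsense-mediated decay. Malat1 and Neat1 are of another kind: both are abundant RNAs retained in the nucleus, Malat1 at nuclear speckles, which are rich in splicing factors, and Neat1 as the scaffold of paraspeckles.

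The 6 measured host genes hold 25 snoRNA loci in the GENCODE M21 annotation of GRCm38 (mm10), with 9 in Gas5, 8 in Snhg1, 4 in Snhg12, 2 in Snhg5 and 1 each in Snhg6 and Snhg8. The sequences of 5 snoRNAs carried by the 4 hosts that rose, and of 1 carried by Gas5, which did not pass the test, are shown because these small RNAs are what such loci are named for. Capitals mark the C box (TGATGA, starting within the first 15 bases) and the D box (CTGA, in the last 20 bases) of box C/D snoRNAs, or the ACA element 3 bases from the end of a box H/ACA snoRNA. All are read on the transcript strand. The sequence of Snora44 in Snhg12, 129 bases, was also read and is not shown. It had none of these marks at these places.
Snord50a (Snhg5, chr9:88521529-88521600, minus): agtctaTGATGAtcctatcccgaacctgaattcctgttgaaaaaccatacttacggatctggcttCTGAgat
Snord50b (Snhg5, chr9:88521797-88521868, minus): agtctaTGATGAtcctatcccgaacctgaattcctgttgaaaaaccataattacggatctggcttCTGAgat
Snord87 (Snhg6, chr1:9942463-9942549, minus): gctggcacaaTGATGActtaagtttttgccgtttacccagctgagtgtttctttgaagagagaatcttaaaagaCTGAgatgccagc
Snord99 (Snhg12, chr4:132310691-132310764, plus): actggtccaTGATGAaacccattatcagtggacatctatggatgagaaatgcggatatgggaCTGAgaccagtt
Snora24 (Snhg8, chr3:123507937-123508066, minus): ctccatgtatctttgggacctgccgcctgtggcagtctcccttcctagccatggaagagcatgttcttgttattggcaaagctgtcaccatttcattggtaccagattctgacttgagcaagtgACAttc
Snord47 (Gas5, chr1:161038082-161038158, plus): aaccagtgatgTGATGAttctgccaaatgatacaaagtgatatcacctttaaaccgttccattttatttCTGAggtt

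Of the 1558 snoRNA and small Cajal body RNA transcripts in that annotation, 20.2% had both boxes at these places and 19.3% had the ACA element. The copies in Snhg5 were of equal length, 72 bases, and differed by 1 substitution, C50A, counted from the 5′ end with the base of Snord50a first. Of the 25 loci, only Snord87 had a row in the table. It was listed with 5, 3 and 3 reads in control replicates 1 to 3 and with 5, 7 and 2 reads in knockout replicates 1 to 3. These numbers overlapped between the genotypes, and the values reported below are those of the long host RNAs, not of the snoRNAs they carry.

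The exon models bear on what the host values count. In the annotation the exon blocks of Snhg1, Snhg8 and Snhg12, merged over all transcripts, cover 100% of the gene body. Those of Snhg5 cover 92.0%, those of Gas5 91.3% and those of Snhg6 53.1%. With these lengths the deposited FPKM of 7 of the 8 genes came out as whole reads in every library, within 0.02 of a read. For Snhg12 they came out whole with an exon length of 1626 bases and not with the annotated 2402 bases. Of the 25 snoRNA loci, 24 overlap these merged exon blocks, so for most of these hosts unspliced and spliced RNA were counted together. The 4 loci of Snhg12 are among the 24, but its values came out whole with another length. What was counted for Snhg12 is therefore not known.

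The libraries held between 17779110 and 19046822 reads by the spacing of the deposited values, and Carmil3 itself was listed between 0 and 0.0360 FPKM in every library, too low to check the labels. The genotypes stood apart on the principal component with 71.4% of the variance, and knockout replicate 3 stood apart from the other knockout libraries on the component with 11.8%, at -15.55 against 6.73 and 9.56. Epithelial markers were present in control cells, where the 8 markers summed to between 1048 and 1148 FPKM. All 8 were lower in the knockout cells, where they summed to between 429 and 473 FPKM. Krt8 (470 ± 19.6 to 217 ± 9.25 FPKM) and Krt18 (522 ± 24.7 to 227 ± 14.8 FPKM, SD, n = 3) held most of these sums. Epcam went from 19.7 ± 0.0502 to 0.0875 ± 0.0544 FPKM. Krt7, Krt14, Epcam, Cdh1 and Cldn4 were under 1 FPKM in every knockout library. These passed the filter only through the control libraries, where they are high, so their falls are given with no test. Ptprc, the pan-leukocyte marker, was at or below 0.00614 FPKM in every library and Pecam1, an endothelial marker, at or below 0.0531 FPKM. Not all immune markers were that low. Cd68 stood at 3.18 ± 0.203 FPKM in control and 2.75 ± 0.393 FPKM in knockout libraries (SD, n = 3) and did not pass the test. Lyz2 stood at 0.851 ± 0.210 and 1.08 ± 0.230 FPKM (SD, n = 3), and these 2 held most of the immune sum. Of the marker lists of other cell types, 5 of 8 immune markers had a row and summed to between 3.44 and 4.601 FPKM, 4 of 5 endothelial markers summed to at most 0.0682 FPKM, and 5 of 7 fibroblast markers summed to between 11.4 and 12.04 FPKM in control and between 17.8 and 18.4 FPKM in knockout libraries. The fibroblast markers went opposite ways: Pdgfra rose from 10.1 ± 0.135 to 17.6 ± 0.272 FPKM, while Col1a1 was listed at 1.501 ± 0.209 and 0.271 ± 0.0230 FPKM (SD, n = 3), and Col1a2, Dcn and Acta2 were at most 0.161 FPKM in any library. The part of these in the results below was not tested. Of all genes tested, 1886 were higher in the knockout (16.9%) and 2087 lower (18.7%) at an adjusted p under 0.05 by limma on log2(FPKM + 1). On this scale the change of low genes is understated.

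Among the 8 measured genes 4 rose in Carmil3 knockout cells, all of them snoRNA hosts: Snhg12, Snhg6, Snhg8 and Snhg5. None fell by limma, with 0 lower also at an unadjusted p under 0.05 and by limma-voom; at that unadjusted p Snhg1 was also higher. The rises were small, between 1.24-fold for Snhg5 and 1.46-fold for Snhg12. The background is 16.9% of all genes tested for a call as higher, 18.7% as lower and 35.6% in either direction. For 5 of 8 every knockout library was above every control library, against 24.2% of all genes tested, and for 0 of 8 below, against 26.4% (50.5% in either direction). Gas5, Malat1 and Neat1 did not pass the test. The median log2 change was 0.30 for the 6 hosts and -0.09 for Malat1 and Neat1, beside -0.01 for all genes tested. In bulk samples a change in the number of cells that express a gene and a change in RNA per cell cannot be told apart.

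**Figure D1:**
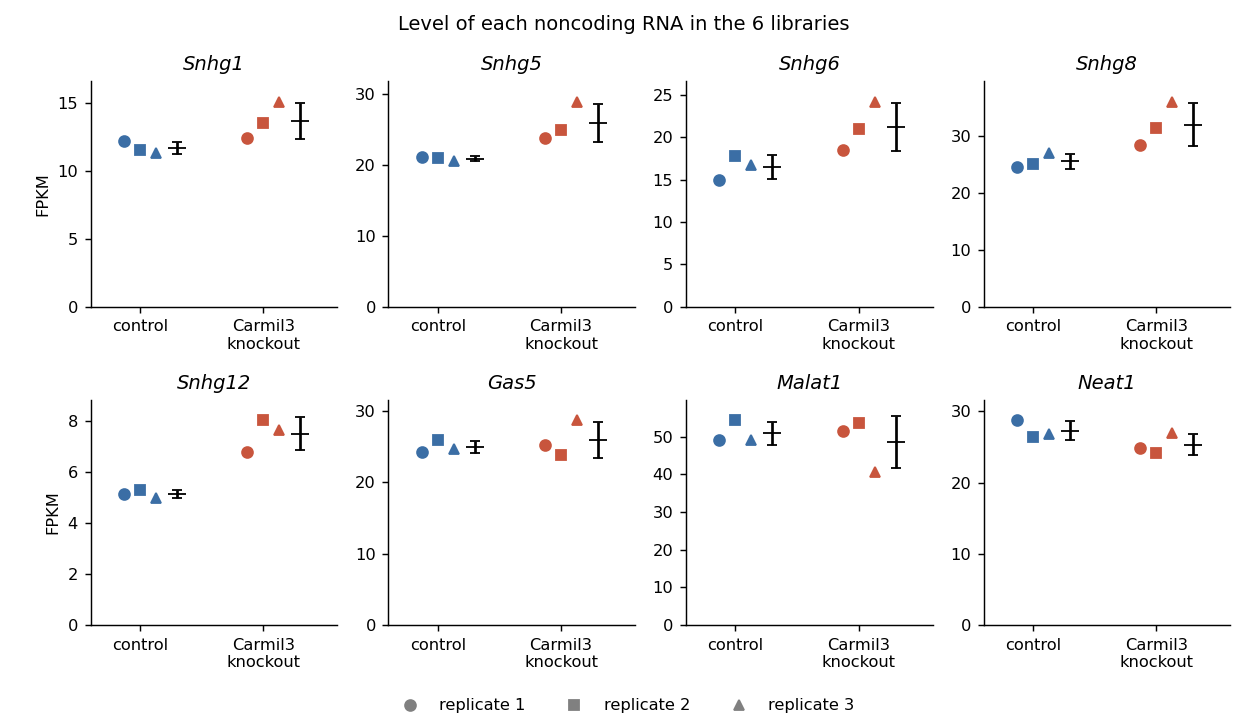
Level of each noncoding RNA in FPKM (vertical axes, starting at 0) in the 3 control and 3 Carmil3 knockout libraries; each symbol is a library and the bar is the mean ± SD (n = 3). For Snhg1, Snhg5, Snhg6, Snhg8 and Snhg12 every knockout library lies above every control library, for Gas5, Malat1 and Neat1 the genotypes overlap, and knockout replicate 3 is the highest library for 5 hosts and the lowest for Malat1.

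Snhg12 lies on chromosome 4 (ENSMUSG00000086290, 132308623 to 132311024, plus strand, GRCm38) and hosts Snora16a, Snora44, Snora61 and Snord99. Control replicates 1 to 3 gave 5.14, 5.29 and 4.99 FPKM, and knockout replicates 1 to 3 gave 6.78, 8.04 and 7.66 FPKM. Every knockout library was above every control library, and the control libraries lay close together. The means were 5.14 ± 0.149 and 7.50 ± 0.647 FPKM (SD, n = 3), a log2 change of 0.47 ± 0.07 (SE, adjusted p = 0.00136 by limma). With 152 to 242 reads per library it was the member with the fewest reads, and counting error alone was between 6.43% and 8.11% of its value. The call held with any 1 library left out, where the highest adjusted p was 0.00832 (limma).

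Snhg5, the host of Snord50a and Snord50b on chromosome 9 (ENSMUSG00000097195, 88521050 to 88522929, minus strand), stood at 21.2, 20.9 and 20.5 FPKM in the control libraries and 23.8, 24.96 and 28.9 FPKM in the knockout libraries. The control libraries differed by less than 1 FPKM, and the knockout libraries were all higher and spread more widely. The means were 20.9 ± 0.336 and 25.9 ± 2.68 FPKM (SD, n = 3), a log2 change of 0.30 ± 0.07 (SE), adjusted p = 0.0146 by limma. This call, too, held with any 1 library left out, with a highest adjusted p of 0.0465 (limma).

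Snhg8 hosts Snora24 on chromosome 3 (ENSMUSG00000104960, 123507552 to 123508404, minus strand). The control libraries gave 24.6, 25.1 and 27.1 FPKM and the knockout libraries 28.5, 31.4 and 36.1 FPKM. The groups did not overlap, and the knockout libraries covered a range of several FPKM. The means were 25.6 ± 1.32 and 32.0 ± 3.82 FPKM (SD, n = 3), a log2 change of 0.31 ± 0.08 (SE), adjusted p = 0.0223 by limma. Leaving out control replicate 1 (adjusted p = 0.0830, limma) or control replicate 2 (0.0656) ended the call.

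Snhg6, the host of Snord87 on chromosome 1 (ENSMUSG00000098234, 9941959 to 9944118, minus strand), stood at 15.02, 17.8 and 16.7 FPKM in the control libraries and 18.6, 20.98 and 24.2 FPKM in the knockout libraries. The lowest knockout library was above the highest control library by less than 1 FPKM. The means were 16.5 ± 1.41 and 21.3 ± 2.86 FPKM (SD, n = 3), a log2 change of 0.34 ± 0.10 (SE), adjusted p = 0.0274 by limma. Leaving out a library ended the call for control replicate 1 (adjusted p = 0.101, limma), control replicate 3 (0.0668), knockout replicate 2 (0.0617) and knockout replicate 3 (0.0567). The strand setting of the counting was one item not given in the sources used here, and 127 exonic bases of Snhg6 are shared with Mcmdc2 on the opposite strand. Mcmdc2 was listed at no more than 0.0186 FPKM in any library.

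Snhg1, on chromosome 19 (ENSMUSG00000108414, 8723475 to 8726443, plus strand), carries Snord22 and other snoRNAs. The control libraries gave 12.2, 11.5 and 11.3 FPKM and the knockout libraries 12.4, 13.5 and 15.1 FPKM. All knockout libraries were above all control libraries, but knockout replicate 1 only just above control replicate 1. The log2 change was 0.21 with a 95% interval from 0.04 to 0.38, and the adjusted p was 0.0595 by limma, short of the threshold of 0.05. It passed when recovered reads were fitted by limma-voom (adjusted p = 0.0476), with a filter of 5 FPKM (0.0483) and without knockout replicate 1 (0.0315).

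Gas5, on chromosome 1 (ENSMUSG00000053332, 161034422 to 161038539, plus strand), is a host gene first found as a growth-arrest-specific transcript. The control libraries gave 24.3, 25.9 and 24.6 FPKM and the knockout libraries 25.2, 23.8 and 28.7 FPKM. Knockout cells held both the lowest and the highest library, so the groups overlapped. The means were 24.9 ± 0.870 and 25.9 ± 2.54 FPKM (SD, n = 3). The log2 change was 0.05 with a 95% interval from -0.12 to 0.21, adjusted p = 0.641 by limma. With between 1654 and 1958 reads per library, counting error was at most 2.46% of the value.

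Malat1 (ENSMUSG00000092341, chromosome 19, 5795690 to 5802672, minus strand) had 49.2, 54.4 and 49.0 FPKM in the control libraries and 51.4, 53.7 and 40.7 FPKM in the knockout libraries. Knockout replicate 3 was below the other 5 libraries, which overlapped. The means were 50.9 ± 3.05 and 48.6 ± 6.92 FPKM (SD, n = 3), a log2 change of -0.07 with a 95% interval from -0.31 to 0.16, adjusted p = 0.604 by limma. Malat1 had 5155 to 6935 reads per library and a counting error of at most 1.39%, so the distance of knockout replicate 3, at 0.775 of the mean of the other knockout libraries, was larger than counting error.

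Neat1 lies 22036 bases from Malat1 on the same strand (ENSMUSG00000092274, chromosome 19, 5824708 to 5845478). The control libraries gave 28.8, 26.3 and 26.8 FPKM and the knockout libraries 24.9, 24.1 and 26.9 FPKM. Knockout replicates 1 and 2 were the lowest of the 6 libraries and knockout replicate 3 lay among the control libraries. The means were 27.3 ± 1.30 and 25.3 ± 1.47 FPKM (SD, n = 3), a log2 change of -0.11 with a 95% interval from -0.24 to 0.03, adjusted p = 0.214 by limma. Neat1 had the most reads, 9260 to 10865 per library. Its exon length of 20771 bases covers the long isoform, so the value averages over the short and the long isoform, which cannot be separated in it.

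By level per length in control cells the order was Malat1, Neat1, Snhg8, Gas5, Snhg5, Snhg6, Snhg1 and Snhg12. The control libraries of Neat1 and Snhg8 overlapped, and so did those of Snhg8 and Gas5. All other neighbours in this order were apart in every control library. The order is one of deposited FPKM and depends on the exon models described above.

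Knockout replicate 3 moved with these results. It was the highest of the 6 libraries for 5 of 6 hosts (Snhg1, Snhg5, Snhg6, Snhg8 and Gas5), against 22.1% of all genes tested, and the lowest for Malat1, against 25.4%. Its values were between 1.17 and 1.23 times the mean of the other knockout libraries for those 5 hosts and 1.03 times for Snhg12. The same library was highest for 22 of 40 protein-coding snoRNA hosts. It also had the highest summed level of mitochondrially encoded mRNAs, 25028 FPKM against 21063 to 23931 FPKM in the other 5 libraries. That sum rests on some of these mRNAs only. mt-Co2, mt-Co3, mt-Atp6, mt-Atp8 and mt-Nd4l were at most 9.11 FPKM in any library. mt-Co1 stood at 5888 ± 121 FPKM in control and 5678 ± 257 FPKM in knockout libraries (SD, n = 3). The part of these patterns of knockout replicate 3 in the result was not tested. Without knockout replicate 3, Snhg12 (log2 change 0.45, adjusted p = 0.00473, limma), Snhg5 (0.22, adjusted p = 0.0110) and Snhg8 (0.22, adjusted p = 0.0336) were still called, 3 of 8 against 18.3% of all genes called higher in that setting. Snhg6 was not (0.25, adjusted p = 0.0567, limma), nor was Snhg1, whose log2 change fell to 0.14. In that setting the change of Gas5 was -0.03 and that of Malat1 0.05, both on the other side of 0.

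**Figure D2:**
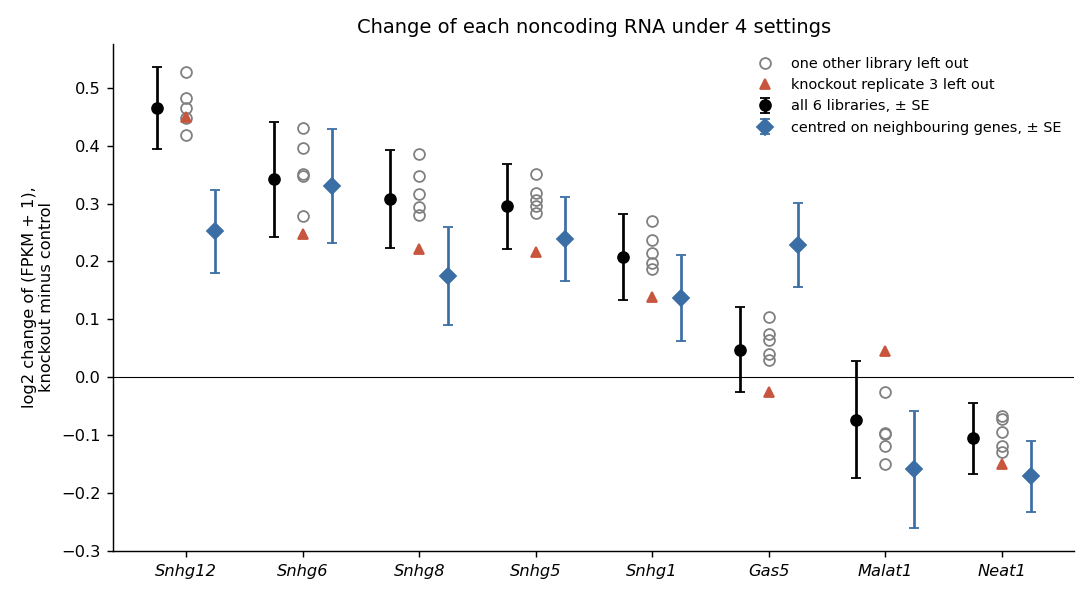
Log2 change of (FPKM + 1), knockout minus control, for each noncoding RNA (vertical axis) with all 6 libraries (black, ± SE), with each library left out in turn (open circles, and red triangles for knockout replicate 3) and after centring on neighbouring genes (blue diamonds, ± SE). Snhg12 stays between 0.42 and 0.53 with any library left out and lies at 0.25 after centring, while Gas5 moves from 0.05 to 0.23 after centring.

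Each gene was also set against its neighbours on the chromosome. After subtraction of the median log2 change over 20 tested genes to either side, Snhg12, Snhg5 and Snhg6 were still called, Snhg8 was not, and Gas5 was called higher. The median of the neighbours was 0.21 around Snhg12, whose change became 0.25 (adjusted p = 0.0310, limma), 0.13 around Snhg8, whose change became 0.18 (adjusted p = 0.164), and -0.18 around Gas5, whose change became 0.23 (adjusted p = 0.0483). Snhg5 was at 0.24 (adjusted p = 0.0421, limma) and Snhg6 at 0.33 (adjusted p = 0.0388). In this setting 13% of all genes tested were called higher. The median was subtracted as a fixed value, so its own error is in neither these p-values nor their standard errors.

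Tested genes within 100 kb are a smaller set than the 20 to either side behind these medians, and some of them are named here. Taf12, which encodes a subunit of the general transcription factor TFIID, lies 12857 bases from Snhg12 and rose by a log2 change of 0.38 (adjusted p = 0.00363, limma). Rcc1, a nuclear exchange factor gene, rose by 0.24 and Ythdf2, an m6A reader gene, by 0.25, while Trnau1ap, 739 bases away on the opposite strand, had a change of 0.04 that did not pass. The nearest tested gene to Snhg8 was Prss12, a serine protease gene 955 bases away on the opposite strand, with means of 0.252 ± 0.111 FPKM over the control libraries and 1.83 ± 0.355 FPKM over the knockout libraries (SD, n = 3). Prss12 passed the expression filter only through the knockout libraries, where it is high, so its difference is given with no test. Of 8 tested neighbours of Snhg1 1 rose and 7 did not pass, beside 16.9% of all genes tested called higher. Around Snhg6, Snord87, Cops5 and Cspp1 had changes between -0.09 and 0.16 and did not pass. The riser beside Snhg1, Slc3a2, which encodes the heavy chain of amino acid transporters, lies 106 bases away on the opposite strand and rose by 0.21 (adjusted p = 0.0257, limma).

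Around Gas5, 2 of 5 tested neighbours fell and none rose, beside 18.7% of all genes tested called lower and 16.9% higher. Zbtb37, a zinc finger gene whose body overlaps that of Gas5 on the opposite strand, fell by 0.29 on the log2 scale (adjusted p = 0.0253, limma). Of the 10 tested genes within 100 kb of Neat1, 3 rose and 1 fell, beside 35.6% of all genes called in either direction, with Cdc42ep2, an effector of the GTPase Cdc42, at 0.53 and Pola2, a DNA polymerase alpha subunit gene, at 0.36. Frmd8, the nearest at 4224 bases, had a change of -0.06 that did not pass.

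**Figure D3:**
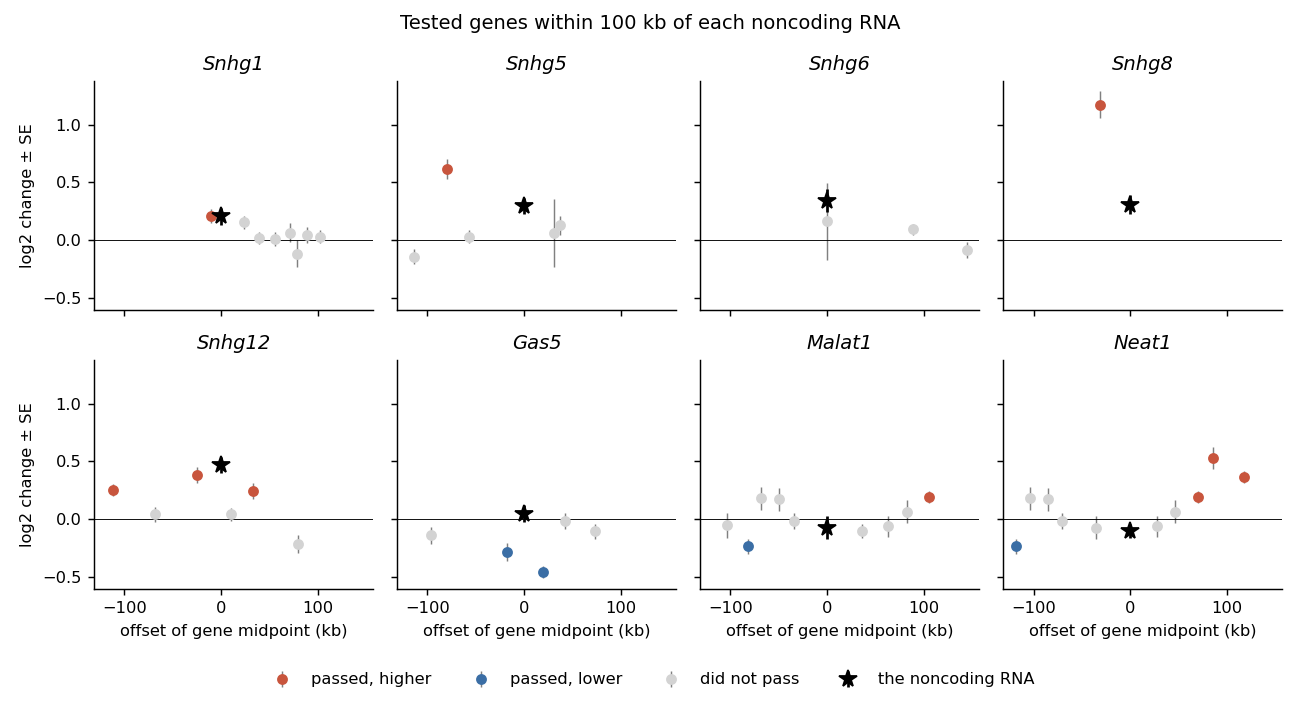
Log2 change ± SE (vertical axes) of tested genes within 100 kb of each noncoding RNA against the offset of the gene's midpoint in kb (horizontal axes); stars are the noncoding RNAs, red and blue points passed the test as higher and lower, and grey points did not pass. The point beside Snhg8 is Prss12, which passed the filter only through the knockout libraries. For Snhg12 3 of 6 neighbours are higher, and for Gas5 2 of 5 are lower. Of all genes tested 16.9% were higher and 18.7% lower.

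The starts of the hosts were read because transcripts of many snoRNA hosts are known to begin with a pyrimidine tract, the 5′ terminal oligopyrimidine (TOP) signal, which also marks ribosomal protein and translation factor mRNAs. A RefSeq start window (GRCm38.p6) was given for 6 of the 8 measured genes, and none for Snhg6 and Neat1. For 3 hosts that rose and for Snhg1 and Gas5, which did not pass, 60 bases around the start are shown, with the longest unbroken run of C and T near the start in capitals.
Snhg12 (chr4:132308648-132308707, plus): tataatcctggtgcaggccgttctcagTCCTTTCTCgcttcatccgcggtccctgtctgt
Snhg8 (chr3:123508307-123508366, minus): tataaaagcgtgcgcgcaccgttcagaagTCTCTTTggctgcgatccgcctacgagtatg
Snhg5 (chr9:88522868-88522927, minus): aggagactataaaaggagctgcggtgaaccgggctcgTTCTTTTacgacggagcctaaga
Snhg1 (chr19:8723457-8723516, plus): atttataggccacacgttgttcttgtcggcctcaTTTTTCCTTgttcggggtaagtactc
Gas5 (chr1:161035136-161035195, plus): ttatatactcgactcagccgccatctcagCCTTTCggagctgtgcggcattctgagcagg

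The run was 9 bases in Snhg12, which rose, and also 9 in Snhg1, which did not pass. It was 7 in Snhg8 and Snhg5, 6 in Gas5 and 4 in Malat1, which is no snoRNA host. Runs at least as long were found in 9.8%, 21.4% and 32.3% of the 32851 start windows for 9, 7 and 6 bases. The median run over all windows was 5 bases. Counted from the listed start base, the run began at 7 in Snhg5, 4 in Snhg1, -3 in Snhg12 and -1 in Snhg8 and Gas5. The runs of Snhg5 and Snhg1 thus begin after the listed start. Gas5 has another listed start, where the longest run was 3 bases. Such a run is a description of these letters and shows neither a start in these cells nor regulation.

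Other noncoding snoRNA hosts gave 7 tested genes. Of these, 2 rose, 1 fell and 4 did not pass, with a median log2 change of 0.04. Of all genes tested 16.9% were higher and 18.7% lower. Zfas1, which hosts box C/D snoRNAs, had 13.03, 13.6 and 12.9 FPKM in the control libraries and 15.8, 16.3 and 18.9 FPKM in the knockout libraries, a log2 change of 0.34 (adjusted p = 0.00760 by limma). Snhg10 rose from 1.21 ± 0.171 to 2.01 ± 0.629 FPKM (SD, n = 3). The 1 called lower, Snhg14, was listed at 1.21 ± 0.103 and 0.768 ± 0.239 FPKM (SD, n = 3) and passed the filter only through the control libraries, where it is high, so its call supports nothing. Snhg15, Snhg17, Snhg20 and Epb41l4aos did not pass, with changes between -0.10 and 0.08. Without knockout replicate 3 the list had 1 rise and no fall.

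Protein-coding genes that carry snoRNAs in their introns went both ways. Of 40 tested, 4 rose, 5 fell and 31 did not pass, with a median log2 change of 0.04. Of all genes tested 16.9% were higher and 18.7% lower. The ribosomal protein genes Rps20 and Rps12 rose by 0.33 and 0.30, and Rpl13 and Rpl30 fell by 0.36 and 0.29 on the log2 scale. Without knockout replicate 3, 4 rose and 11 fell, and after centring on neighbours 1 rose and 1 fell. Of all 11171 genes, 2041 were higher and 2218 lower in the first setting, and 1456 and 1511 in the second. These are also the background for the lists below in those settings. Genes of TOP mRNAs that encode translation factors and related proteins had 1 rise and 2 falls among 19 tested, beside the same 16.9% and 18.7%. The rise was that of Tpt1, which encodes translationally controlled tumour protein, from 724 ± 12.6 to 1116 ± 129 FPKM (SD, n = 3), a log2 change of 0.62 (adjusted p = 0.000840, limma). Eif3l (log2 change -0.30) and Pabpc1, the cytoplasmic poly(A)-binding protein gene (-0.18), fell. Without knockout replicate 3 the falls in this list numbered 5.

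Genes of snoRNP proteins, which bind snoRNAs, and of their assembly factors had 3 rises and 1 fall among 20 tested, with a median log2 change of 0.04. Nufip1, an assembly factor of box C/D particles, rose from 8.44 ± 0.474 to 12.4 ± 1.12 FPKM (SD, n = 3), a log2 change of 0.51 (adjusted p = 0.00113, limma). Shq1 and Gar1, an assembly factor and a core protein of box H/ACA particles, rose by 0.24 and 0.20. Nhp2, another core protein gene of these particles, fell by 0.24 on the log2 scale. Without knockout replicate 3, 2 members rose and 5 fell.

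Nonsense-mediated decay factors, which turn over several spliced host RNAs, had 1 rise and 6 falls among 21 tested, with a median log2 change of -0.04. Of all genes tested 16.9% were higher and 18.7% lower. Dcp2, the decapping enzyme gene, fell from 8.17 ± 0.865 to 6.18 ± 0.845 FPKM and Nbas from 3.24 ± 0.121 to 2.36 ± 0.244 FPKM (SD, n = 3). Rbm8a, an exon junction complex gene, rose by a log2 change of 0.21. Without knockout replicate 3, 5 rose and 5 fell, and after centring on neighbours 2 fell and none rose.

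Of 19 tested paraspeckle protein genes 4 rose, none fell and 15 did not pass, beside 16.9% of all genes tested called higher and 18.7% lower. Those that rose included Rbm12 (log2 change 0.21), Hnrnpr (0.20) and Cpsf6 (0.16), each an RNA-binding protein gene. Of 25 tested nuclear speckle genes 5 rose and 1 fell, beside the same shares. Clk1, a kinase gene for SR splicing factors, rose from 21.5 ± 1.08 to 26.8 ± 1.12 FPKM (SD, n = 3), a log2 change of 0.30 (adjusted p = 0.00435, limma). Tra2a and Srsf7, splicing regulator genes, rose by 0.29 and 0.21, and Pnn fell by 0.16 on the log2 scale. The medians were 0.03 for paraspeckle and 0.07 for speckle genes. After centring on neighbours 2 paraspeckle genes and 2 speckle genes rose, beside 13% of all genes tested.

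**Figure D4:**
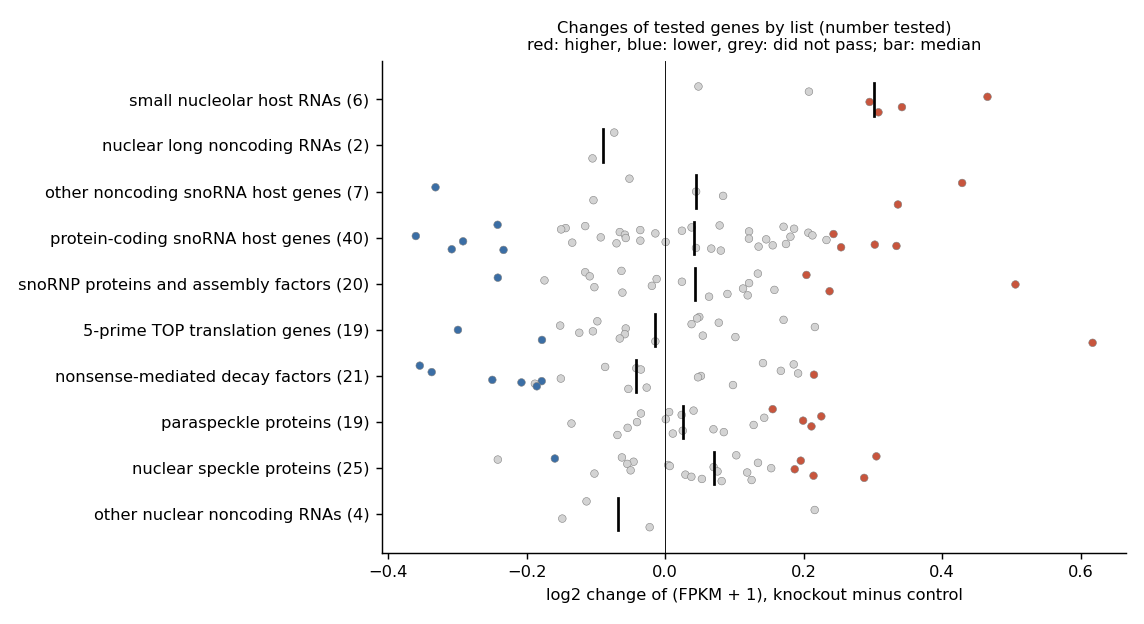
Log2 change of (FPKM + 1), knockout minus control (horizontal axis), of each tested gene in 10 lists (rows, with the number tested); red points passed as higher, blue as lower and grey did not pass, and the bar is the list's median. The 6 small nucleolar hosts have a median of 0.30 and the other lists shown have medians between -0.09 and 0.07. Replication-dependent histone genes, not shown, had a median of 0.36 over 3 tested genes.

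Other noncoding RNAs known to act in the nucleus gave 4 tested genes, and none passed the test by limma, while at an unadjusted p under 0.05 only Pvt1 of the 4 was higher and 0 were lower. With limma-voom, quantile normalization, the replicate block or centring on neighbours, or without control replicate 2, 1 of the 4 was called higher. Tug1 measured 23.8 ± 1.33 and 23.4 ± 0.988 FPKM, Firre 4.53 ± 0.170 and 4.14 ± 0.646 FPKM and Pvt1 4.21 ± 0.390 and 5.04 ± 0.359 FPKM in control and knockout cells (SD, n = 3). Xist, the RNA that coats the inactive X chromosome, was at or below 0.0377 FPKM in every library. As signs of how RNA was captured, replication-dependent histone genes were read, whose mRNAs mostly lack a poly(A) tail. They summed to between 18.2 and 19.4 FPKM in control and between 22.6 and 25.4 FPKM in knockout libraries. The largest part was Hist1h2bc, at 9.20 ± 0.657 and 12.1 ± 1.09 FPKM (SD, n = 3). Of 14 with a row, only 3 passed the filter, and 2 of these rose, Hist1h2bc and Hist1h1c, beside 16.9% of all genes tested. The median log2 change of the 3 was 0.36. The sums thus rest on few genes and do not settle how RNA was captured. Mitochondrially encoded mRNAs had 1 rise, mt-Nd6, among 12 tested, beside the same 16.9%, and their sums overlapped between genotypes. The part of these in the results for the noncoding RNAs was not tested.

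The genes whose pattern over the 6 libraries was most like that of 3 of these RNAs were found by the root mean square difference of log2(FPKM + 1) profiles, each centred on its own mean, among tested genes whose mean reached 5 FPKM. Nearest to Gas5 were Znhit6 (difference 0.0157), Pgk1 (0.0196) and Rer1 (0.0255). Nearest to Malat1 were Son (0.0285), Myo5a (0.0300) and Aff4 (0.0303), and each of these, like Malat1, was lowest in knockout replicate 3. Son, a speckle protein gene, had 27.96, 29.7 and 27.4 FPKM in control and 28.5, 30.01 and 23.6 FPKM in knockout libraries. Nearest to Neat1 were Srsf5 (0.0184), Clpx (0.0216) and Bpnt1 (0.0234). Srsf5, a splicing factor gene, had 103.9, 99.6 and 99.5 FPKM in control and 92.2, 89.9 and 100.1 FPKM in knockout libraries, with knockout replicates 1 and 2 lowest, as for Neat1. All these genes were chosen by their profile, so such shared lows are largely set by the choice.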

How the data were processed

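RNA-seq was measured in 3 control and 3 Carmil3 knockout libraries, grouped by their titles. The authors deposited 1 table of FPKM per Ensembl mouse gene. The unit was read from the values. The tools, per the submitters' processing notes, were HTSeq 0.6.0, TopHat2 2.0.12, TopHat, Bowtie2, Bowtie and CASAVA, with mm10. Their roles, the annotation release and the strand setting were points not given in the sources used here.

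Identifiers were matched to GENCODE M21 (GRCm38), which gave symbols for 23587 rows and none for 57. FPKM times merged exon length came in whole multiples of 1 step per library, for 91.9% to 92.2% of values below 500 reads (tolerance 0.02 of a read), which gave the read totals. Reads summed over listed genes came to 108.7% to 109.1% of these totals, so the depths are approximate. Intervals of counting error cover counting only.

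The test was limma 3.58.1 (R 4.3.3; trended, robust eBayes) on log2(FPKM + 1) of 11171 genes, with p-values adjusted by the Benjamini-Hochberg method across these genes and called under 0.05. The fit was tested on simulated data. Carmil3, below the filter, gave p = 0.3 in a two-sided exact permutation test (the smallest possible is 0.1). Replicates were not 1 library deposited again: their chi-square per degree of freedom was 3.03 to 19.15. Tables and plots were made in Python 3.11.15 (numpy 2.4.6; pandas 2.3.3; matplotlib 3.10.9).

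The members and gene lists were chosen with earlier results of these data known. The text names the members, called list genes (up to 3 a direction, reaching 2 FPKM in the higher group), tested genes within 100 kb of a member, and the 3 nearest profiles to Gas5, Malat1 and Neat1. Some genes that this rule names are not reported. The other noncoding hosts that did not pass, Cpsf6, Tug1, Firre, Pvt1, Xist, Mcmdc2, Snhg14, Col1a1, Col1a2, Dcn, Acta2, Ptprc and Pecam1 fall outside it and were chosen after their values were seen. The same holds for Krt8, Krt18, Krt14, Cdh1, Cd68, Lyz2, mt-Co1, mt-Co2, mt-Co3, mt-Atp6, mt-Atp8 and mt-Nd4l. Alternatives were other pseudocounts, filters, scalings and variance settings, the replicate number as a block, a threshold of 1.5-fold in the test itself, centring on neighbours, limma-voom on recovered reads, and each library left out.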

Additional observations from a re-analysis of the deposited data

How the results depend on the processing

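The number of noncoding RNAs called higher was 4. It was 2 without the expression filter and 0 in the test against a 1.5-fold change, and lay between 2 and 5 with 1 library left out (2 without control replicate 1). None was called lower under any of the 17 alternatives. The counts over all genes, 1886 higher and 2087 lower, became 118 and 193 in the test against a 1.5-fold change and ranged from 1182 to 2041 and from 1358 to 2218 with 1 library left out, lowest without control replicate 1. Snhg12 and Snhg5 lost their calls only in the test against a 1.5-fold change, Snhg6 in 6 and Snhg8 in 5 of the 17 alternatives. With 1 library left out, rises and falls ranged from 0 to 4 and 2 to 11 among protein-coding hosts, 1 to 2 and 0 to 5 among snoRNP genes, 0 to 5 and 1 to 5 among decay factors, 1 to 2 and 0 to 1 among paraspeckle genes, and 2 to 7 and 0 to 3 among speckle genes. Among the 8 RNAs directions turned only without knockout replicate 3, where the log2 change of Gas5 was -0.0263 (highest with another library left out 0.105) and that of Malat1 0.0461 (lowest -0.149). Why counts move with the filter was not tested. The replicate number pairs the samples only by name: same-numbered libraries correlated at -0.061, 0.149 and 0.098 in their deviations from the group means. With the replicate block 4 noncoding RNAs were called higher, 1900 genes were higher and 2127 lower, and no call of the 8 RNAs changed. Depth limits Snhg12 most, with 152 to 242 reads per library.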
